A study of Mus musculus with 6 samples.

Results

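The genes described here are 7 genes of cholesterol synthesis, Hmgcs1, Idi1, Fdft1, Sqle, Lss, Cyp51 and Insig1, in mouse RNA-seq of libraries labelled as regulatory T (Treg) cells. They were chosen by symbol, and each was found once among the 32377 gene identifiers of the count table. By their labels, 3 libraries of the series are TNFR2-deficient and 3 are TNFR2-positive Treg cells, CD4 T cells that restrain other immune cells. Tnfrsf1b encodes TNFR2, which binds tumour necrosis factor and is a prominent surface receptor of Treg cells. The labels give no tissue, strain, age, sort or culture, and do not say how TNFR2 was lost or whether the groups share any other allele or treatment, so nothing more can be said of the cells as a model. The design text asks which genes are expressed differently between the groups.

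Cells make cholesterol from acetyl-CoA by way of mevalonate, squalene and lanosterol. The transcription factor SREBP2 drives the genes of the whole pathway when sterols in the endoplasmic reticulum are low, and the INSIG proteins hold SREBP and its escort SCAP in that membrane when sterols are plentiful. INSIG1 is itself a target of SREBP, and T cells that grow and divide draw on the pathway for membranes and for the isoprenoid lipids that anchor small GTPases.

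Total counts were 22465991 to 24038118 in the TNFR2-deficient libraries and 19296082 to 23587552 in the TNFR2-positive ones, where 3 counts, taken as the detection floor, correspond to 0.125 to 0.155 CPM (counts scaled to a common depth), for counting error only. For Tnfrsf1b itself the TNFR2-deficient group averaged 7.87 ± 0.503 CPM and the TNFR2-positive group 83.0 ± 2.48 CPM (SD, n = 3 each), the direction of the labels. The markers of the labelled cell type went against the Treg label in the TNFR2-deficient libraries. Foxp3, the factor that defines Treg cells, was at 1.44 ± 0.0974 CPM in TNFR2-deficient and 75.5 ± 2.14 CPM in TNFR2-positive libraries, and all 6 Treg markers fell, with a sum of 27.6 to 34.7 against 466.5 to 517.3 CPM. Markers of other cells separated the groups too. Summed over each list, 8 markers of double-positive thymocytes were at 3244 to 3333 CPM in TNFR2-deficient and 351.8 to 365.7 CPM in TNFR2-positive libraries, with Rag1, of antigen receptor recombination, at 917.9 ± 72.7 against 3.31 ± 0.0785 CPM. Macrophage markers (6 genes) were at 739.5 to 749.9 against 197.5 to 201 CPM, erythroid markers (5 genes) at 17952 to 20506 against 4220 to 6990 CPM, and B cell markers (5 genes) at 6157 to 6436 against 4751 to 4952 CPM. The B cell list was divided, with 3 genes higher. Pax5 was lower, at 629.6 ± 35.5 against 846.3 ± 72.3 CPM, and the groups overlapped for Ms4a1. No gene of these 5 lists was at 0 in either group. Hepatocyte markers (6 genes, 3 of them at 0 throughout the TNFR2-positive group) summed to 86.9, 6.77 and 20.0 CPM in TNFR2-deficient and at most 0.214 CPM in TNFR2-positive libraries. TNFR2-positive library 1 stood apart from libraries 2 and 3 (chi-square per gene 15.3 and 20.6, against 2.54 between those). Mitosis genes, 8 in the list, of which 2 rose and 4 fell, summed to 233.3 to 244.9 CPM in TNFR2-deficient libraries, and in TNFR2-positive libraries to 438.2 CPM in library 1 and to 337.4 and 331.2 CPM in the others. The part of these differences in the results below was not tested, and in bulk RNA fewer cells of a type and less RNA per cell cannot be told apart. Separate animals are named nowhere in the labels. The p-values therefore reflect variation among these 6 libraries alone, possibly of technical origin.

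The DNA before the start site is shown for the members that RefSeq's table for the build GRCm38.p6 holds, because SREBP acts there together with the factors NF-Y and Sp1. It held 5 of the 7 members, and Fdft1 and Sqle are named only. The stretches are the 250 bases before the start, at chr13:119690101-119690350 on the plus strand for Hmgcs1, chr13:8885356-8885605 (plus) for Idi1, chr10:76531355-76531604 (plus) for Lss, chr5:4104698-4104947 (minus) for Cyp51 and chr5:28071162-28071411 (plus) for Insig1. Capitals mark a sterol regulatory element core (TCACNCCAC), a CCAAT box (CCAAT, bound by NF-Y) or a GC box (GGGCGG, bound by Sp1), searched on both strands, where ATTGG and CCGCCC are the reverse forms. No match of one motif overlapped a match of another.
Hmgcs1: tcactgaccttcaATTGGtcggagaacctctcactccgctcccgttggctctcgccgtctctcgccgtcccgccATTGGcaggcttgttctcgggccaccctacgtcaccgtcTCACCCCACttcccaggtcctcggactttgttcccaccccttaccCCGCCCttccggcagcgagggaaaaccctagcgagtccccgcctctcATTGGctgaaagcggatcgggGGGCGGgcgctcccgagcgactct
Idi1: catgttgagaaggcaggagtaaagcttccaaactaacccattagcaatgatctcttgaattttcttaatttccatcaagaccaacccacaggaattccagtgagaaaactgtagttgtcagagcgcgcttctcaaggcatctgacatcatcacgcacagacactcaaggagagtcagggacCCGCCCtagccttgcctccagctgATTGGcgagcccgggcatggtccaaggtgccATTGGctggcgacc
Lss: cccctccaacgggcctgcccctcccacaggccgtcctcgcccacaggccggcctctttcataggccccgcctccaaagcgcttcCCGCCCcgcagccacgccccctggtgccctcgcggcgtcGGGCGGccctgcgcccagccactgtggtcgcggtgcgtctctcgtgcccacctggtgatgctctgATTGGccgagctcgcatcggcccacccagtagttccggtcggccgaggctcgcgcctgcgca
Cyp51: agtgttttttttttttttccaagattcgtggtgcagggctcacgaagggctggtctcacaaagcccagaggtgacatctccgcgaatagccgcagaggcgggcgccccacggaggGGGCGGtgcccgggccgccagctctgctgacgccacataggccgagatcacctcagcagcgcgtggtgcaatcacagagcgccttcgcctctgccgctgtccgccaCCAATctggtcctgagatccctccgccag
Insig1: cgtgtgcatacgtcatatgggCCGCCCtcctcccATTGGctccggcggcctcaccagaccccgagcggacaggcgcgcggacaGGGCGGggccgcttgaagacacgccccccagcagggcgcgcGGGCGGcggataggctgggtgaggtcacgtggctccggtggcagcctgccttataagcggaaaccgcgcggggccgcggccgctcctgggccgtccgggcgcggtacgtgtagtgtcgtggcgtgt
Each of the 5 stretches held at least 1 CCAAT box and at least 1 GC box. Of 32841 stretches of this length in the table, 33.9% held a CCAAT box, 32.7% a GC box and 11.0% both, and for the 13567 stretches of genes tested here the shares were 35.4%, 54.0% and 19.1%. Hmgcs1 had the one sterol element core, 137 to 129 bases before its RefSeq start, a motif found in 1.05% of all stretches, and 3 CCAAT boxes. Insig1 had 3 GC boxes and 1 CCAAT box. The bases just after that start were found unbroken in a GENCODE M21 transcript for Idi1, Cyp51 and Insig1 but not for Hmgcs1 and Lss, so their positions hold for the RefSeq start only. A match describes letters, not binding, and no match says only that these letters are not in the window.

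Of the 7 members 6 fell in the TNFR2-deficient libraries and 1, Fdft1, did not pass the test. The number that rose was 0 with edgeR, also at an unadjusted p below 0.05, and 0 with DESeq2 and limma-voom. All 7 were above the filter on low counts. By the quasi-likelihood test of edgeR over 17022 genes, 34.2% were lower and 35.1% higher at a Benjamini-Hochberg adjusted p below 0.05, together 69.3%. These shares are the background of every count below that names no other setting. The median log2 fold change (log2FC, TNFR2-deficient over TNFR2-positive) of the members was -0.54, against 0.04 over all genes tested. Their summed level was 140.8, 137.7 and 139.7 CPM in TNFR2-deficient and 192.8, 190.0 and 193.5 CPM in TNFR2-positive libraries, a ratio of 0.726. The summed mitosis genes had a ratio of 0.648 between the same groups and the summed Treg markers one of 0.0639, and their part in the members' values was not tested. Most of the mitosis sum was Mki67 (90.0 against 158.7 CPM) and Top2a (68.7 against 128.9 CPM). Of the 8 mitosis genes 4 fell, these 2 among them, 2 rose and 2 did not pass the test, so the ratio does not describe the list as a whole. The groups did not overlap for any of the 7 members, with all TNFR2-deficient libraries lower for 6 and higher for Fdft1, as for 74.5% of all genes tested (36.3% lower, 38.2% higher). All CPM values of single genes are scaled by the trimmed mean of M values (TMM), and means are given ± SD (n = 3 per group).

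**Figure D1:**
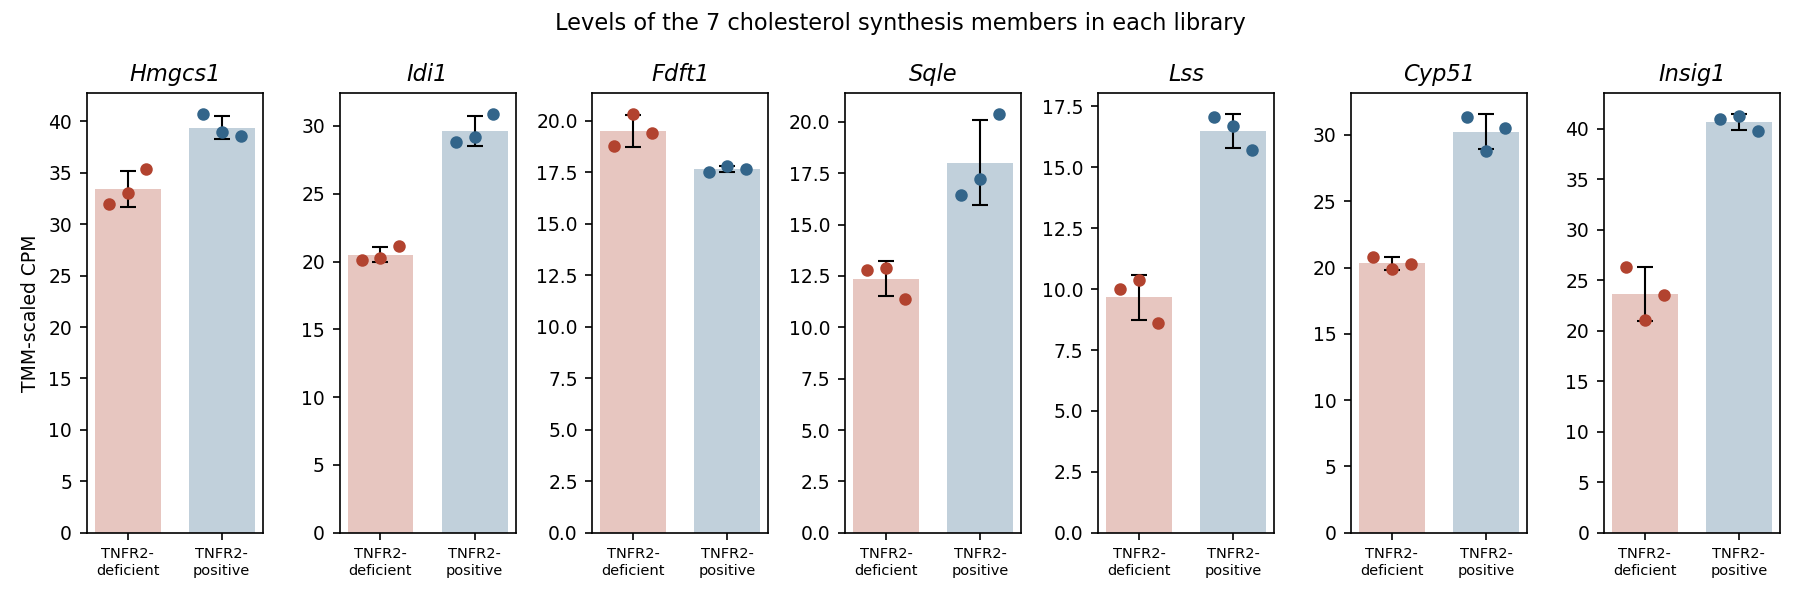
TMM-scaled CPM (vertical axes, each from 0) of the 7 members in the TNFR2-deficient and TNFR2-positive libraries. Points are libraries, bars the mean and whiskers the SD (n = 3). In 6 of 7 panels every TNFR2-deficient library lies below every TNFR2-positive one, and for Fdft1 every TNFR2-deficient library is the higher.

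Hmgcs1 (ENSMUSG00000093930) makes HMG-CoA from acetoacetyl-CoA and acetyl-CoA, an early step of the pathway. It was at 32.0, 33.0 and 35.4 CPM in TNFR2-deficient libraries and at 40.7, 39.0 and 38.5 CPM in TNFR2-positive libraries. The groups were apart by little, and the fall was the smallest of the 6 (log2FC = -0.24, 95% interval -0.38 to -0.09, SE 0.0655, adjusted p = 0.00684). Idi1 (ENSMUSG00000058258), the isomerase that interconverts the isoprenoid building blocks, was at 20.1, 20.3 and 21.1 CPM in TNFR2-deficient and 28.8, 29.2 and 30.9 CPM in TNFR2-positive libraries. Its libraries were close together within each group and it fell 1.44-fold (log2FC = -0.53, SE 0.0682, adjusted p = 2.89e-05).

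Fdft1 (ENSMUSG00000021273), the squalene synthase that commits farnesyl diphosphate to sterols, was at 18.8, 20.3 and 19.4 CPM in TNFR2-deficient libraries, against 17.5, 17.8 and 17.7 CPM in TNFR2-positive libraries. The TNFR2-deficient libraries were all higher, by an amount that did not pass the test (log2FC = 0.14, 95% interval -0.02 to 0.31, SE 0.0744, adjusted p = 0.107). The interval leaves out a fall as large as that of any other member. Fdft1 shares 774 exonic bases with Ctsb, annotated on the opposite strand, in GENCODE M21. Ctsb, the lysosomal protease cathepsin B, was singled out after its values were seen, at 616.7 ± 8.42 CPM in TNFR2-deficient and 239.5 ± 11.2 CPM in TNFR2-positive libraries (log2FC = 1.36, adjusted p = 4.26e-09). The strand setting of the counting is not given in the sources used here, so reads of these partners cannot be told apart in that stretch, and the part of Ctsb in the Fdft1 value was not tested.

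Sqle (ENSMUSG00000022351), the squalene epoxidase that takes the first oxygen-dependent step, was at 12.8, 12.9 and 11.4 CPM in TNFR2-deficient libraries and 16.5, 17.2 and 20.4 CPM in TNFR2-positive libraries. TNFR2-positive library 3 was the highest, and the spread within that group (SD 2.07 CPM around a mean of 18.0 CPM) was the widest relative to the mean of any member in either group. Its fall (log2FC = -0.54, SE 0.102, adjusted p = 0.000526) passed the test. Lss (ENSMUSG00000033105), the cyclase that folds the epoxide into lanosterol, was at 9.99, 10.4 and 8.61 CPM in TNFR2-deficient and 17.1, 16.7 and 15.7 CPM in TNFR2-positive libraries. The groups were wide apart and it fell 1.71-fold (log2FC = -0.77, SE 0.098, adjusted p = 2.62e-05). Its log2FC was -0.31 (adjusted p = 0.0152) once the relation of each library to exonic gene length was removed. Over 16643 tested genes longer genes tended to a lower log2FC (Spearman rho = -0.298).

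Cyp51 (ENSMUSG00000001467), which takes the 14-alpha methyl group off lanosterol, was at 20.8, 19.9 and 20.3 CPM in TNFR2-deficient and at 31.4, 28.8 and 30.5 CPM in TNFR2-positive libraries. It fell 1.49-fold (log2FC = -0.57, SE 0.0687, adjusted p = 1.69e-05), with a spread in the TNFR2-deficient group of 0.473 CPM. Cyp51 shares 166 exonic bases with Akap9 on the opposite strand, a scaffold protein of the Golgi and centrosome that was also singled out after its values were seen. Akap9 was at 51.8 ± 2.32 against 132.8 ± 31.1 CPM (log2FC = -1.36, adjusted p = 2.86e-06). Once the relation to exonic length was removed its log2FC was -0.60, and its part in the Cyp51 value was not tested.

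Insig1 (ENSMUSG00000045294), the regulator among the members, showed, together with Lss, the greatest fall of the 7. With the relation to exonic length removed the log2FC of Insig1 was -0.87 and that of Lss -0.31. Insig1 was at 26.3, 21.0 and 23.5 CPM in TNFR2-deficient libraries and 40.9, 41.2 and 39.8 CPM in TNFR2-positive libraries. The TNFR2-positive libraries were almost level, and the gap between the groups was far wider than the spread in either (1.72-fold lower, log2FC = -0.78, 95% interval -0.96 to -0.60, SE 0.0814, adjusted p = 5.6e-06). Its paralog Insig2, which SREBP does not drive in the same way, moved in the opposite direction, at 32.0 ± 2.13 against 22.4 ± 0.395 CPM (log2FC = 0.52, adjusted p = 5.24e-05).

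The members did not all move by the same amount. Ratios between genes of one library do not depend on the scaling, and 21 pairs of members were compared. The log2 ratio of each of the other 6 members to Fdft1 was lower in every TNFR2-deficient library than in every TNFR2-positive one, by 0.38 for Hmgcs1 and up to 0.93 for Insig1. Insig1 over Fdft1, for instance, was 0.49, 0.05 and 0.28 in TNFR2-deficient and 1.22, 1.21 and 1.17 in TNFR2-positive libraries on the log2 scale. Ratios to Fdft1 carry any Ctsb reads counted in the stretch that Fdft1 shares with Ctsb, and their part was not tested. Among the 15 pairs of members that fell, 6 did not overlap between the groups. Hmgcs1 stood in 5 of these, with a ratio to each of the other members that was higher in the TNFR2-deficient libraries, and Cyp51 over Insig1 was the other one. The ratio of Lss to Insig1 differed by 0.01 on the log2 scale, within the spread of the libraries. This likeness was not kept with the relation to exonic length removed, where the log2FC was -0.31 for Lss and -0.87 for Insig1. A two-sided exact permutation test of 3 against 3 libraries cannot give less than p = 0.1, the value of each pair without overlap, so no pair could pass a threshold. The share without overlap was 74.5% for single genes and was not counted for pairs of other genes. The numbers of pairs therefore have no background to be set against.

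Per kilobase of exon the order of the members was nearly the same in both groups. In TNFR2-deficient libraries the levels in RPKM (TMM-scaled CPM divided by exonic kilobases) were 7.64 for Insig1, 7.28 for Hmgcs1, 5.85 for Idi1, 4.61 for Fdft1, 4.60 for Cyp51, 2.23 for Sqle and 0.895 for Lss. In TNFR2-positive libraries they were 13.1 for Insig1, 8.58 for Hmgcs1, 8.45 for Idi1, 6.85 for Cyp51, 4.18 for Fdft1, 3.25 for Sqle and 1.53 for Lss. Fdft1 and Cyp51 changed places, and the libraries of Insig1 and Hmgcs1, and of Fdft1 and Cyp51, overlapped in the TNFR2-deficient group, as did those of Hmgcs1 and Idi1 in the TNFR2-positive group. Among 16643 tested genes with a length, Insig1 stood at percentile 62.7 in TNFR2-deficient and 75.1 in TNFR2-positive libraries, while Lss stood at percentile 23.3 in TNFR2-deficient and 29.5 in TNFR2-positive libraries. The Lss length, 10787 bases, joins the exons of all its annotated transcripts, which lowers a level per kilobase.

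The other enzymes of the pathway moved in both directions. Of 15 genes 7 rose, 4 fell and 4 did not pass the test, with a median log2FC of 0.13. Of those that fell, Mvd, the decarboxylase that ends the mevalonate steps, Lbr, a nuclear envelope protein with sterol reductase activity, and Hsd17b7, a ketoreductase of sterols, had log2FC of -0.33, -0.59 and -0.80 (adjusted p = 0.0107, 7.62e-05 and 0.000831). In Hsd17b7 TNFR2-positive library 1 was at 14.6 CPM against 9.82 and 9.50 CPM in the others.

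The enzymes that rose stood before squalene and in the later steps, but not as blocks of their own. Before squalene Hmgcs1, Mvd and Idi1 fell among them, and after lanosterol Cyp51, Lbr and Hsd17b7 fell. Dhcr7, which reduces a double bond in the last steps to cholesterol, rose to 34.0 ± 0.95 CPM in TNFR2-deficient libraries, against 21.9 ± 1.79 CPM in TNFR2-positive libraries (log2FC = 0.63, adjusted p = 1.6e-05). Ebp, a sterol isomerase, had a log2FC of 0.36 (adjusted p = 0.00149). Acat2, the thiolase that makes acetoacetyl-CoA, had a log2FC of 0.37, Pmvk, the phosphomevalonate kinase, of 0.57, and Fdps, the farnesyl diphosphate synthase, of 0.42 (adjusted p = 0.00568, 0.000223 and 0.00384). Mvk, the mevalonate kinase, rose with a log2FC of 0.42 (adjusted p = 0.0243), a call lost in 6 of 15 alternatives, among them leaving out TNFR2-deficient library 2 (adjusted p = 0.13), TNFR2-deficient library 3 (adjusted p = 0.0523), TNFR2-positive library 1 (adjusted p = 0.0545) or TNFR2-positive library 2 (adjusted p = 0.0589). Tm7sf2, Msmo1, Nsdhl and Sc5d, which act between lanosterol and the last steps, had log2FC of 0.07, 0.13, 0.04 and 0.01 (adjusted p = 0.64, 0.243, 0.705 and 0.886). Msmo1 was called higher with the relation to exonic length removed (log2FC = 0.33, adjusted p = 0.00779). It was also called higher without TNFR2-positive library 3 (log2FC = 0.22, adjusted p = 0.0445).

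**Figure D2:**
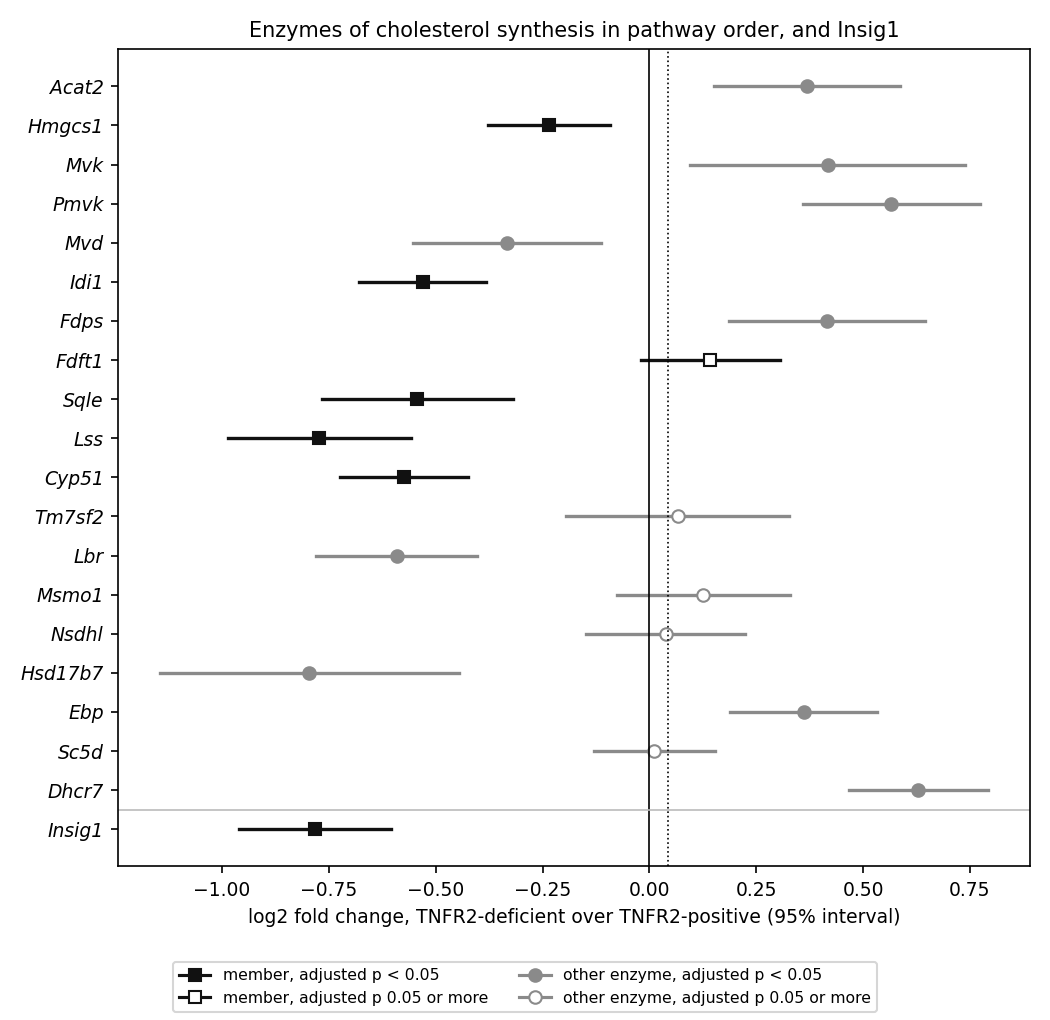
log2 fold change of TNFR2-deficient over TNFR2-positive libraries (horizontal axis) with its 95% interval for 13 other enzymes and the member enzymes from acetoacetyl-CoA down to cholesterol, with the regulator Insig1 in the lowest row. Squares are members, circles other enzymes, filled where the adjusted p was below 0.05, and the dotted line is the median of all genes tested (0.04). Members lie left of 0 except Fdft1, and Dhcr7, an enzyme of the last steps, lies to the right at 0.63.

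Genes that control SREBP moved in both directions. Of 13 genes 8 fell, 2 rose and 3 did not pass the test (median log2FC = -0.28), but with the relation to exonic length removed 3 fell and 5 rose. Srebf1, which encodes the SREBP1 proteins that favour fatty acid genes, rose to 68.4 ± 1.06 CPM in TNFR2-deficient libraries, against 46.2 ± 2.22 CPM in TNFR2-positive libraries (log2FC = 0.57, adjusted p = 7.12e-06). Erlin1, a cholesterol-binding protein of the endoplasmic reticulum membrane, had a log2FC of -0.45 (adjusted p = 0.000122). Srebf2, the gene of SREBP2, was singled out after its values were seen. It was at 172.9 ± 2.33 CPM in TNFR2-deficient and 218.6 ± 2.04 CPM in TNFR2-positive libraries (log2FC = -0.34, adjusted p = 0.000153), and with the relation to exonic length removed this call was lost (log2FC = -0.06, adjusted p = 0.35).

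Genes of sterol uptake and storage were divided. Of 12 genes 5 fell, 5 rose and 2 did not pass the test (median log2FC = -0.08), and without TNFR2-deficient library 2 the number that rose was 3. Without that library 5298 of all 17638 genes tested rose. Stard4, a sterol carrier driven by SREBP2, had a log2FC of -0.67 (adjusted p = 9.61e-06). Lipa, the lysosomal acid lipase that frees cholesterol from its esters and is abundant in macrophages, rose to 142.2 ± 2.92 CPM in TNFR2-deficient libraries, against 57.8 ± 3.33 CPM in TNFR2-positive libraries (log2FC = 1.30, adjusted p = 1.09e-08). Macrophage markers were at 739.5 to 749.9 against 197.5 to 201 CPM in the same libraries, and their part was not tested.

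Several genes of sterol efflux rose. Of 10 genes 7 were tested, 4 rose and 3 did not pass the test (median log2FC = 0.57), and the number that fell was 0 with edgeR, also at an unadjusted p below 0.05, and 0 with DESeq2 and limma-voom. Abca1, the cholesterol exporter, singled out after its values were seen, had a log2FC of -0.20 (adjusted p = 0.127). It was called lower without TNFR2-positive library 3 (log2FC = -0.29, adjusted p = 0.0369), with no filter on low counts (adjusted p = 0.0392) and with the replicate block (adjusted p = 0.0477). Nr1h3, the liver X receptor alpha of macrophages and liver, and Apoe, an apolipoprotein that macrophages secrete, had log2FC of 1.93 and 1.81 (adjusted p = 1.95e-07 and 6.28e-09). Nr1h2, the widely expressed liver X receptor beta, had a log2FC of 0.62 (adjusted p = 4.5e-06). All 6 macrophage markers also rose in these libraries, with a median log2FC of 2.12, and their part was not tested.

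Branches beside the sterol path were mixed. Of 13 genes of the isoprenoid branch 5 rose, 3 fell and 5 did not pass the test (median log2FC = 0.04). Fnta, the shared subunit of the farnesyl and geranylgeranyl transferases, and Rabggta, a subunit of the Rab transferase, rose, with log2FC of 0.53 and 0.46 (adjusted p = 1.25e-05 and 2.63e-05). Pggt1b, the geranylgeranyl transferase beta chain, had a log2FC of -0.45 (adjusted p = 6.55e-05), which was 0.05 (adjusted p = 0.404) with the relation to exonic length removed. Of 11 tested fatty acid genes 6 fell, 4 rose and 1 did not pass (median log2FC = -0.18). Elovl6, an elongase, Acaca, the acetyl-CoA carboxylase, and Fasn, the fatty acid synthase, had log2FC of -1.56, -1.13 and -0.78 (adjusted p = 1.36e-06, 2.13e-06 and 5.01e-06). With the relation to exonic length removed the log2FC of Acaca and Fasn were -0.47 and -0.30. No test compared one list with another.

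**Figure D3:**
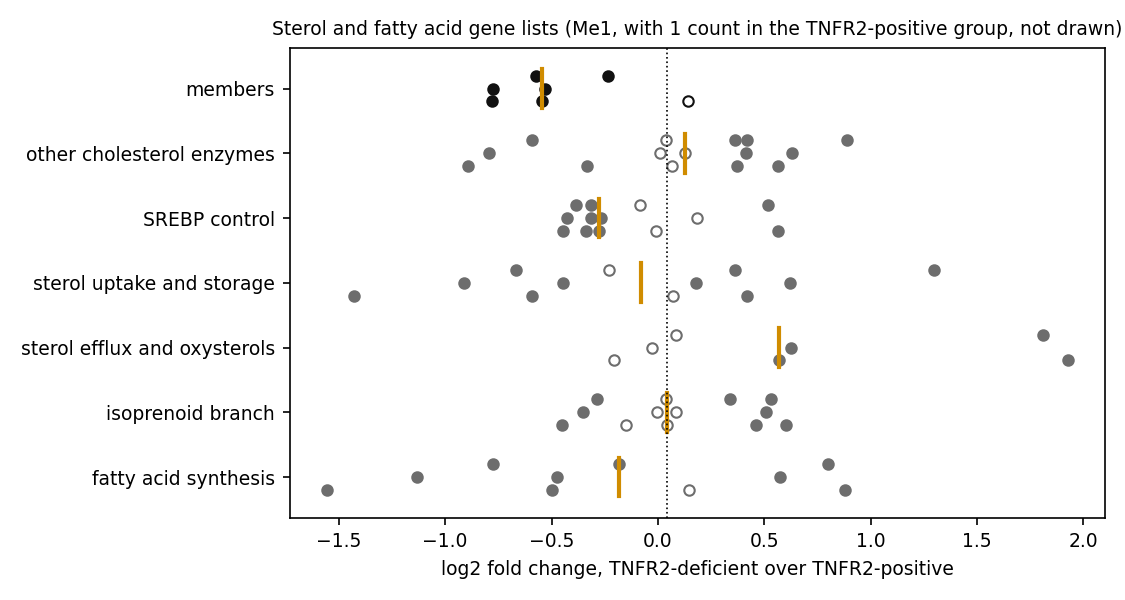
log2 fold change of TNFR2-deficient over TNFR2-positive libraries (horizontal axis) for each tested gene of 7 lists (rows), filled where the adjusted p was below 0.05, with the list median as a vertical bar and the median of all genes tested as a dotted line. Me1, with 1 count in the TNFR2-positive group, is not drawn but counts in its list's median. The members' median lies at -0.54 and those of the other 6 lists between -0.28 and 0.57.

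The profiles most like each member over the 6 libraries were sought among 9529 genes with a mean of at least 5 CPM, as the root mean square difference of log2 CPM after centring each gene. This measure takes in both the difference between the groups and the spread within them. The nearest to Insig1 were Tmem267 (0.0343) and Nlrc4, an inflammasome sensor (0.0468). Those of Lss were Prkab2, a subunit of the AMP-activated kinase (0.028), and Prkcq, the T cell kinase PKC-theta (0.0578). Cyp51 had Wdr43 (0.0158) and Actr2, a subunit of the Arp2/3 complex (0.0166), as neighbours, and Idi1 had Vsir, the inhibitory receptor VISTA (0.0243), and Mapkbp1 (0.0301). Sqle lay nearest to Acot7, an acyl-CoA thioesterase (0.0466), and the ubiquitin ligase Siah2 (0.0628). Hmgcs1 lay nearest to the lipid kinase Pip5k1a (0.0155) and the mitochondrial fusion gene Mfn2 (0.0163), and Fdft1 to Ino80e, a chromatin remodelling subunit (0.0121), and Wdr70 (0.0145). None of the 14 was a gene of the other sterol lists, and no member could be the neighbour of another. Those lists hold few of the 9529 genes, so their absence among the neighbours says little.

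The calls of the members held under the 15 alternative ways of processing, apart from Fdft1 in 1 of them. The 6 members that fell passed the threshold under each, with the highest adjusted p at 0.0366 for Hmgcs1 (without TNFR2-deficient library 1) and at 0.0152 for Lss. Without TNFR2-positive library 1, the library that stood apart, 6 members fell and the median log2FC of the members was -0.55. Fdft1 passed in 1 alternative, with upper-quartile scaling (log2FC = 0.19, adjusted p = 0.0398).

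**Figure D4:**
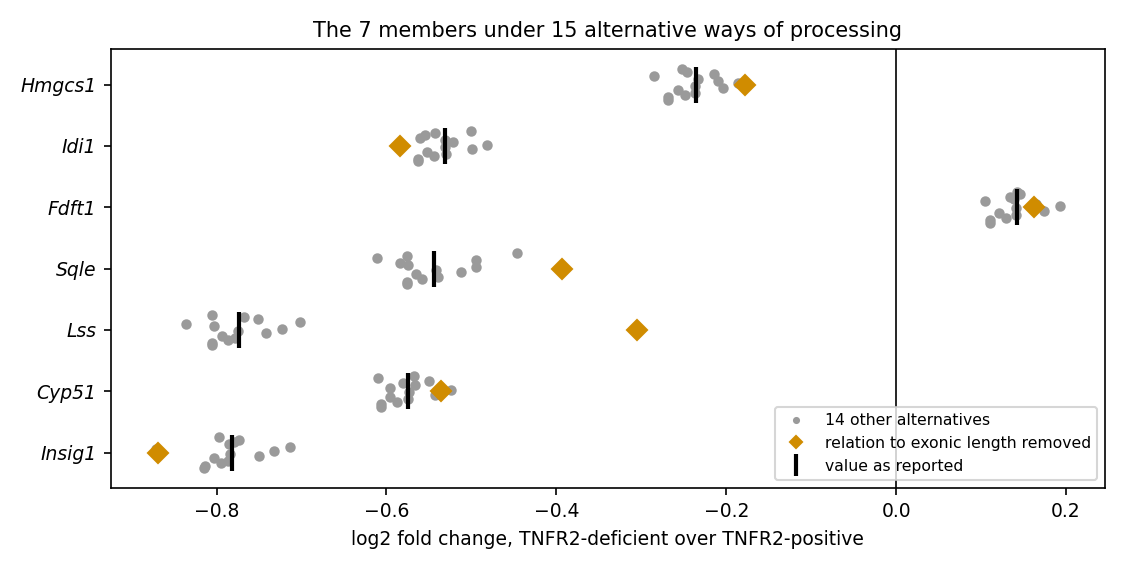
log2 fold change of TNFR2-deficient over TNFR2-positive libraries (horizontal axis) of the 7 members (rows) as reported (bar), with the relation to exonic length removed (diamond) and under the other 14 alternatives (points). Lss moves from -0.77 to -0.31 when the relation to length is removed, Insig1 lies between -0.87 and -0.71, and no member crosses 0.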

How the data were processed

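The authors deposited whole-number counts per gene identifier for 6 libraries, without normalization, per the labels. Per the labels' protocols, poly(A) RNA was captured, fragmented and amplified by PCR. No molecular identifiers are mentioned, so counting errors treat reads as independent. HISAT2 2.1.0 and the build GRCm39 are listed in the submitters' processing notes. The counting program, the gene models, the strand mode and the treatment of multiply mapped reads were not given in the sources used here. Symbols were matched for 30529 of 32377 identifiers.

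The test was edgeR 4.0.16 (R 4.3.3), by glmQLFit and then glmQLFTest, after filterByExpr and TMM scaling, with the group as the only term and Benjamini-Hochberg adjustment over 17022 genes at 0.05. The test was run on simulated data with known changes first. Exonic lengths and overlaps came from GENCODE M21, an older build, with lengths for 97.8% of tested genes. The promoter stretches are RefSeq's, for GRCm38.p6. Alternatives were DESeq2 1.42.0, limma-voom (limma 3.58.1), other scalings and filters, the replicate number as a block, leaving out each library, and an offset per library from a spline (4 degrees of freedom) on log2 exonic length.

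The members, lists and tests were chosen with earlier results of these data known. Named were all members, all other enzymes, the 3 genes with the smallest adjusted p of each further list, and the 2 nearest genes of each member. Any other is said to be chosen after its values were seen, with some exceptions. These are Tnfrsf1b, the check of the labels, Me1, left out of a figure, and single genes of the cell marker and mitosis lists. Those single genes were named with their values known. Some genes that these rules name are not reported here. Marchf6 is listed under its older symbol.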

Additional observations from a re-analysis of the deposited data

How the results depend on the processing

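Of the results that answer a comparison (calls over all genes, over the members and over the 6 pathway lists pooled, and the members' median), 2 values moved. With upper-quartile factors 1 member was higher, against 0 as reported, and with the relation to exonic length removed the members' median log2FC was -0.39, against -0.54, with -0.58 to -0.50 on leaving out 1 library. The number of members that fell was 6 throughout. Across all results and settings 1078 of 1110 values kept their direction and side of the threshold, or stayed within 1.5 times a count.

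Signs turned for genes that had passed no threshold. Sc5d was at -0.021 with DESeq2 and -0.021 with RLE size factors, at -0.0019 with library size only, at -0.010 with a mean of at least 50 counts, and at -0.030 to 0.028 on leaving out 1 library. Nsdhl was at -0.065 with length removed, and Tm7sf2 at -0.0027 to 0.12 on leaving out 1 library. Among called genes Pggt1b turned to 0.055 with length removed. The cause was not tested.

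The replicate numbers of the titles did not pair the libraries (correlation of same-numbered libraries' deviations 0.04, 0.05 and -0.06). With the replicate block 6005 genes were higher and 5851 lower, against 5983 and 5819, 6 members fell, 0 rose, and their median log2FC was -0.54. TNFR2-deficient library 2 correlated better with TNFR2-positive library 3 (0.07) than with its own number. Counts of 207 to 955 per member and library limit the precision.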
